A study of Drosophila melanogaster with 3 samples.

Results

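Binding of the Hox protein Ultrabithorax (Ubx) was examined at the genes of 2 secreted signals of the fly, decapentaplegic (dpp) and wingless (wg). Members were chosen by position alone. They were the HA-Ubx peaks on chromosome arm 2L whose midpoint lay from 2425000 to 2490000, the window taken for dpp and the region 3′ of it that serves the imaginal discs, or from 7240000 to 7360000, the window taken for wg and neighbouring Wnt genes. That these windows hold the genes was not checked against a dm3 annotation. All coordinates are 1-based positions of the dm3 build, per the submitters' processing notes. Of 10337 peaks in the list and 1789 on 2L, 6 were members. All 6 lay in the wg window, and the dpp window held 0.

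The peaks came from ChIP-seq in a line derived from S2-DRSC, Drosophila cells that the labels describe as of late embryonic origin. The cells carried a stably transfected Ubx with an HA epitope tag and were exposed to 10 micromolar copper sulphate over 24 h, and both the immunoprecipitation (2 replicates) and the input (1 sample) came from these same cells. Cells without the HA-Ubx gene, and cells without copper, were not analysed here, so there are no values without HA-Ubx to set beside these. The labels do not say which promoter drives HA-Ubx or whether the line is 1 clone, and no expression values were analysed here, so neither the cell type nor the activity of dpp and wg was checked. Both replicates share 1 peak list, so no value below has a replicate error.

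Dpp is a bone morphogenetic protein (BMP) type ligand that binds serine/threonine kinase receptors and acts through the Smad protein Mad. Wg is a Wnt ligand that binds Frizzled receptors and stabilises the β-catenin Armadillo. Both spread from their source and pattern the tissue around it. In the visceral mesoderm of the embryonic midgut, Ubx switches on dpp, and wg is expressed just behind it under the related Hox protein Abdominal-A. In the haltere disc, Ubx represses wg in part of the margin and restricts Dpp signalling, which keeps the haltere smaller than the wing.

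No HA-Ubx peak was called in the dpp window. These 65.0 kb held no midpoint, and no peak overlapped them by as much as 1 bp. The nearest peak before the window, at chr2L:2375693-2376646, ended 48.4 kb from the window's edge. The nearest peak after the window, at chr2L:2492318-2493460, began 2318 bp beyond the other edge. The dpp window therefore lay wholly inside a stretch of 116 kb without a peak, from 2376647 to 2492317. The list holds only regions that passed the authors' peak calling, so weaker binding at dpp would not appear in it.

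An empty window of this length was not rare on 2L. Laid end to end from the dpp window, windows of 65001 bp numbered 353 on the arm, and 48 of them (13.6%) held no peak. They held a median of 4 peaks, the quartiles were 1 and 8, and the fullest held 19. Sliding windows of the same length, in steps of 5000 bp, were empty in 13.7% of positions. Across the 4 large autosomal arms, 10.7% of end-to-end windows of this length were empty. The plot of peaks per window places dpp in the leftmost and tallest column.

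**Figure D1:**
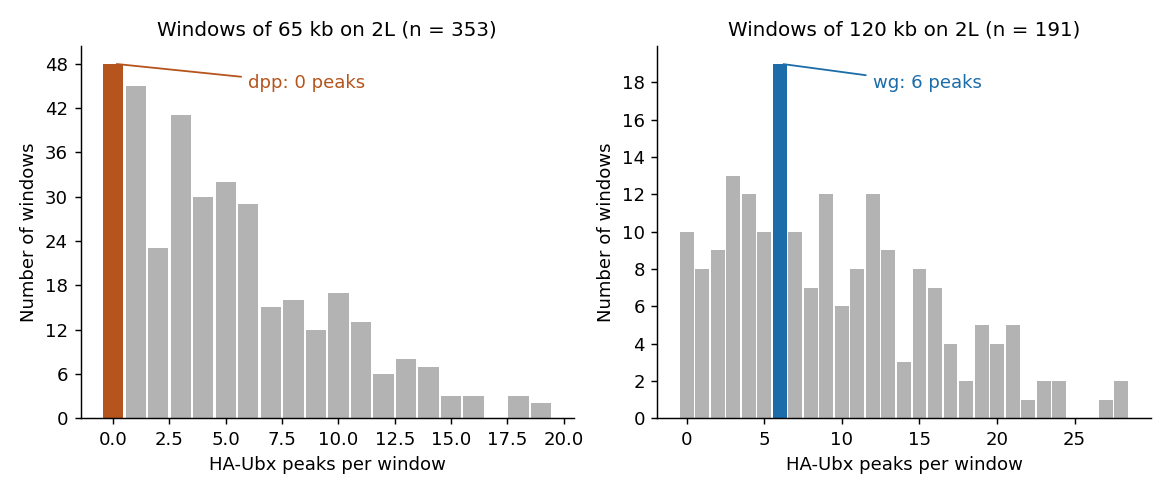
Number of 2L windows (vertical axis) by the count of HA-Ubx peak midpoints they hold (horizontal axis), for windows as long as the dpp window (left, n = 353) and as the wg window (right, n = 191). The coloured columns hold the loci: dpp is 1 of 48 windows with 0 peaks, and wg is 1 of 19 windows with 6 peaks.

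The peak-free stretch around dpp was long among the gaps of the arm. It ranked 21 of 1788 gaps between the edges of adjacent 2L peaks, so 1.17% of gaps were at least as long. It was 30.0 times the median gap of 3.86 kb, while the longest gap of the arm measured 332 kb. A gap that spans an empty window of 65.0 kb is at least that long by construction. A high rank and a length far above the median thus followed from the empty window and are not separate results. Long gaps take up much of the arm, however, and 15.2% of the span of 2L lay in gaps at least as long as the one at dpp. Over the 4 large autosomal arms, 65 of 8119 gaps (0.801%) reached that length.

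**Figure D2:**
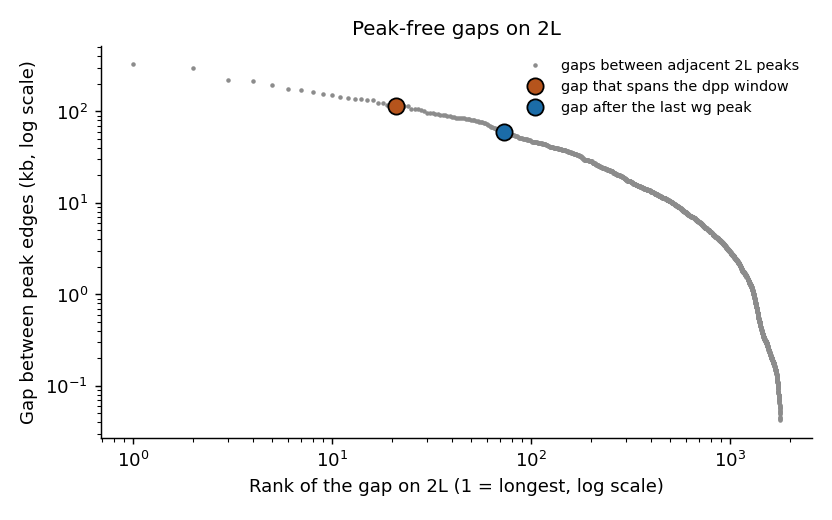
Length of the gap between the edges of adjacent HA-Ubx peaks on 2L (kb, log scale) against its rank from the longest (log scale). The gap that spans the dpp window, 116 kb, ranks 21 of 1788, and the 60.1 kb gap after the last peak of the wg window ranks 73.

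The peaks that bound this stretch were not weak. The authors gave each peak a score, whose quantity is not stated, and over 2L it had a median of 25.5 with an interquartile range of 17.1 to 39.1. Before dpp, the peak at chr2L:2375693-2376646 scored 44.4. Right beside it, the peak at chr2L:2374434-2374975 scored 94.1 and ranked 20 of the 1789 peaks of 2L. The peak after dpp, at chr2L:2492318-2493460, was 1143 bp wide and scored 33.4, which 33.7% of 2L peaks reached. The next one after it began 75.5 kb from the window's edge and scored 22.2.

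Around the dpp window, the equal-length window just before it held 4 peaks, which is the median of such windows, and the one just after it held 1. Over 500 kb centred on the dpp window there were 18 peaks, against a median of 38.0 in 45 end-to-end windows of that length, and 4 of the 45, this one included, held as few. Over 1000 kb the count was 85, against a median of 83.0. The count was thus low over 500 kb and not over 1000 kb. In Release 6 of the genome, protein-coding CG44139 precedes dpp and Slh, a Sly1-type protein of vesicle transport, follows it, with oaf next. That assembly differs from the build of the peaks, so it was used for gene order alone and no peak was assigned to any of these genes.

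The wg window held 6 peaks over 120 kb (exact Poisson 95% interval 2.20 to 13.1, counting error only), or 50 per Mb against 77.8 per Mb over the span of 2L. This count was ordinary for the arm. Of 191 end-to-end windows of 120001 bp, 129 (67.5%) held at least as many peaks and 62 held fewer. The median was 8, the quartiles were 4 and 13.0, and 10 windows (5.24%) held none. Peaks covered 4042 bp or 3.37% of the wg window, against a median of 4.98%, and 127 of the 191 windows were covered at least as far. The equal-length windows on either side held 12 and 13 peaks. Over 500 kb centred on wg there were 49 peaks, against a median of 36.0 in 45 windows.

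The 6 wg peaks were unevenly placed. They spanned 67.3 kb in the lower-numbered part of the window, with 5 in its first 60.0 kb and 1 in its second. Midpoints at 55.0, 56.1 and 67.1 kb from the window's start lay close to that division. How peaks split within other 2L windows was not examined. After the last wg peak no further peak was called for 60.1 kb, from 7307428 to 7367567. The 52.6 kb of this stretch that fell inside the window made up 43.8% of the window's length. Of 1788 gaps on 2L, 73 (4.08%) were at least as long, and 34.1% of the arm's span lay in such gaps. In the order of Release 6, protein-coding genes along the arm run CG13786, Wnt4, CG31909, wg, Wnt6, Wnt10 and ninaC. Wnt4, Wnt6 and Wnt10 encode further Wnt ligands, and ninaC encodes a myosin of photoreceptors. Which of these genes each peak lies in or beside was not determined, for the reason given for dpp.

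**Figure D3:**
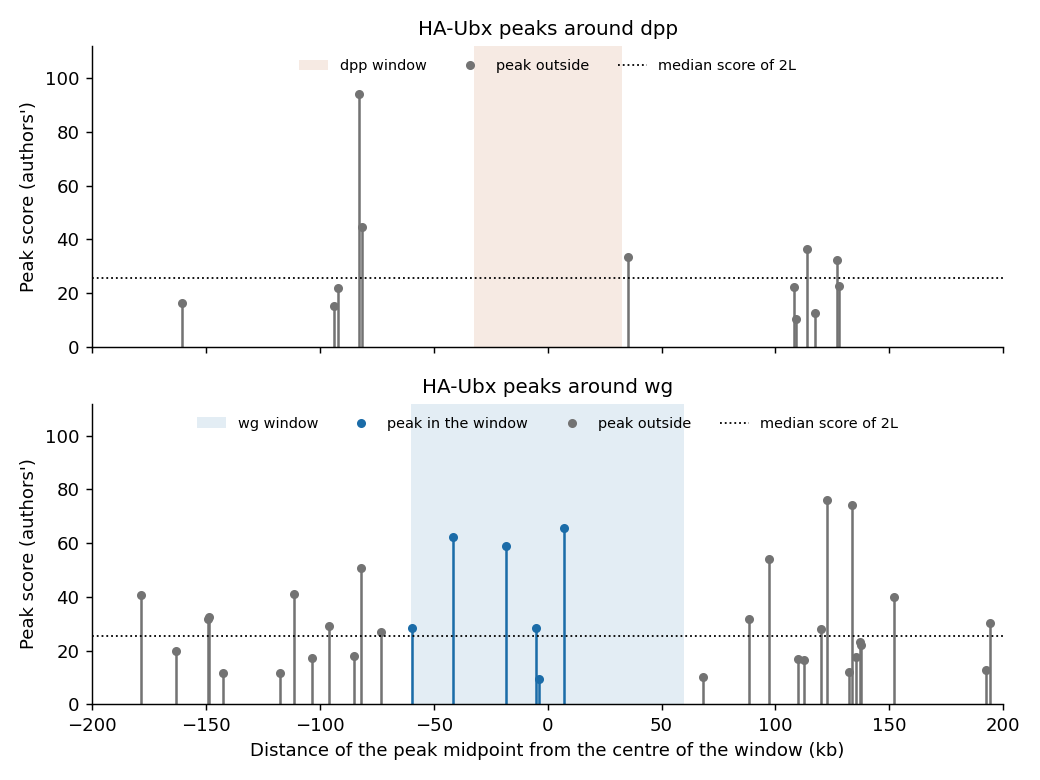
Score of each HA-Ubx peak (vertical axis, authors' score) by the distance of its midpoint from the centre of the dpp window (top) and the wg window (bottom), in kb. Shading marks the windows and the dotted line the 2L median score of 25.5: the dpp window is empty, and 5 of the 6 wg peaks (blue) rise above the line.

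Scores in the wg window ran from 9.59 to 65.5 with a median of 43.6, above the 2L median of 25.5. The scores fell into 3 high and 3 lower values. The highest, 65.5, belonged to the last peak of the row, 719 bp wide at chr2L:7306709-7307427. It ranked 125 of 1789 on 2L and was followed by the 60.1 kb without a peak. The peak at chr2L:7258166-7258454 scored 62.1, rank 148, and the one at chr2L:7281492-7281760 scored 58.8, rank 172. These 3 of 6 peaks stood in the top quartile of 2L scores, which by construction holds 25.0% of the arm's peaks. With 6 peaks and no replicate values this excess was not tested.

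The remaining wg peaks scored near or below the middle of the arm. At chr2L:7240108-7240846 a peak of 739 bp scored 28.4, rank 780. This one is the first of the window, with its midpoint 0.477 kb inside the boundary. At chr2L:7294392-7295549 the widest of the set, 1158 bp, scored 28.3, rank 783. Only 163 bp separated it from the weakest, at chr2L:7295713-7296580, which was 868 bp wide and scored 9.59, a value that 97.5% of 2L peaks reached. That weakest score was the only one of the 6 written with 6 decimals. On 2L, 43 of 1789 scores (2.40%) had more than 5 decimals, and their median was 21.4, against 25.7 for the other scores. What the number of decimals reflects is not stated, nor is how scores of the 2 replicates were combined.

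Among windows of the same length on 2L with at least 3 peaks, 9 of 164 (5.49%), wg included, had a median score as high as 43.6, and the middle of these medians was 25.6. Windows with fewer peaks were left out. Neither this comparison nor its limit of 3 peaks was planned, and other limits were not tried. The highest score of the wg window stood out less, since 76 of the 164 windows (46.3%) held a peak of at least 65.5. The median depended on where the window ends. Moving both ends out by 10000 bp takes in 1 more peak, at chr2L:7367568-7368397 with a score of 9.99, and lowers the median from 43.6 to 28.4. The nearest peak outside the other boundary, at chr2L:7226676-7227072, ended 12.9 kb away and scored 27.1.

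Of the 3 high-scoring wg peaks, 2 were narrow. The peaks scoring 62.1 and 58.8 measured 289 and 269 bp, and 4.75% and 2.74% of 2L peaks were narrower, against a median width of 602 bp on the arm. Narrow peaks on 2L mostly scored low. The 104 peaks of up to 300 bp had a median score of 17.1, against 26.1 for wider ones, and 8 of them (7.69%) stood in the top 25% of scores. Just 5 of the 104 scored at least 58.8, and 2 of those 5 were the peaks of the wg window. The limit of 300 bp was chosen after these widths were seen. The limit of 58.8 is the lower score of these 2 wg peaks, so both are among the 5 by construction. The plot of width against score shows both at the left edge of the cloud, far above most peaks of their width.

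**Figure D4:**
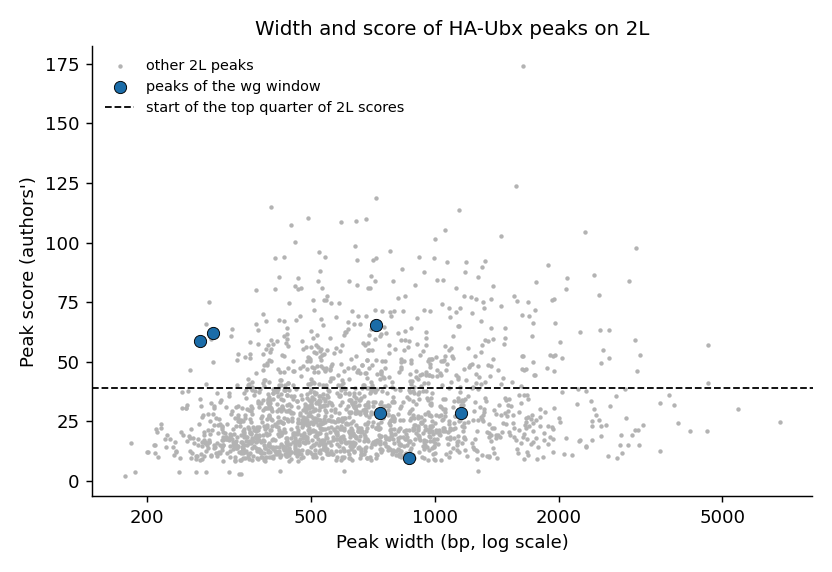
Score (authors' score) against width (bp, log scale) for the 1789 HA-Ubx peaks of 2L, with the 6 peaks of the wg window in blue and a dashed line at the start of the top 25% of scores, 39.1. The 269 and 289 bp peaks of wg lie above the line at the narrow end, with 719 bp for the third peak above it.

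The wg peaks also stood apart from one another. The 5 gaps between their edges ran from 163 to 23037 bp with a median of 12.6 kb, against 3.86 kb over 2L, and 3 of the 5 exceeded 11.8 kb, the upper quartile of the arm. A midpoint of another peak lay within 5000 bp for 2 of the 6, the adjacent peaks scoring 28.3 and 9.59. On 2L as a whole 74.6% of peaks had such a neighbour. The 3 high-scoring peaks had none. Fewer peaks in a window leave wider gaps, and the spacing in windows with a similar count was not set beside that of wg.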

How the data were processed

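Chromatin from HA-Ubx cells was sequenced for 2 immunoprecipitation replicates and 1 input. The submitters' processing notes name BWA 0.7.12, MACS2 and dm3. The authors deposited 1 peak list with a score per peak, common to both replicates. The sources used here do not give the quantity behind the score, the calling thresholds or the use of the input. The list gives no read counts, and depth is unknown. Only midpoints decided membership. Equal-length windows were laid end to end from each locus inside the span of 2L peaks, 23 to 23009270. No test was made, since 1 list gives no replicate spread. Every share is a description of this list, and how many reads can be mapped in each window was not examined. Named peaks are all members, the nearest peaks outside each boundary and, added after values were seen, further peaks beside dpp. The windows, lists and comparisons were chosen with earlier results of these data known. The planned promoter motifs and pathway genes needed dm3 sequence or annotation, which were not used here. The window functions were checked on simulated data. Alternatives changed the peaks, membership, windows and score limits. Python 3.11.15, numpy 2.4.6, pandas 2.3.3, scipy 1.17.1 and matplotlib 3.10.9 were used.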

Additional observations from a re-analysis of the deposited data

How the results depend on the processing

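The dpp window stayed empty when membership was by overlap. Joining close peaks or keeping the higher-scoring 50% of 2L peaks could not have added a peak there, and the share of windows with at least as many peaks is 100% for any count of 0, so these settings say nothing about the stability of the absence. Extending the window by 10000 bp on both sides, an alternative chosen after seeing the data, took in the peak 2318 bp outside it. The dpp count then became 1, the share of 2L windows with at least as many peaks fell from 100% to 93.7%, and the share of windows without a peak fell from 13.6% to 6.30%. In the higher-scoring 50%, the share of windows without a peak was 24.1%, 42.9% of windows held at least as many peaks as wg, against 67.5% in the full list, and the covered share of the wg window was 2.64% against 3.37%. Fewer peaks leave more windows empty and cover less by construction. The wg rank moved because wg kept 5 of its 6 peaks in that set. The count of high-scoring wg peaks was 5 in the top 50% of scores and 3 in the top 25%. The wg count ran from 5 to 7 over its alternatives. The median wg score was 58.8 after joining and also without the score of 6 decimals, and 28.4 in the extended window. No median score could be given for dpp, which has no peak. No replicate could be left out. No paired analysis was possible because both replicates share 1 list of peaks. Every absence is one from a list of called peaks, whose threshold is not given.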
